A study of Mus musculus with 12 samples.

Results

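The proteasome genes were taken as every gene whose symbol, given alone for a probe set in the array annotation, starts with Psma, Psmb, Psmc, Psmd, Psme, Psmf or Psmg. The rule found 48 genes, measured by 85 probe sets, among 12393 genes with a probe set of their own. A probe set is a group of short oligonucleotides on the array that measures 1 transcript, and each gene was represented by its probe set with the highest mean log2 signal over all arrays. The members comprised 8 alpha and 7 constitutive beta subunits of the core, 3 immunoproteasome subunits, 6 ATPases and 11 other subunits of the regulatory particle, 3 activators, 1 regulator and 7 assembly chaperones. Psmc3ip, a factor of meiotic recombination, and Psme3ip1, which binds an activator, share the letters but are no subunits. Psme2 was no member, because its probe set also carries the symbol Psme2b.

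RNA came from the quadriceps of C57Bl/6J mice in 4 groups of 3 arrays each. Sedentary mice given vehicle are called vehicle, sedentary mice given GW1516 are called GW, exercise-trained mice given vehicle are called exercise, and trained mice given GW1516 are called combination. GW1516 is a synthetic agonist of the nuclear receptor PPARδ and was given at 5 mg/kg per day for 4 weeks. The treatment time was 4 weeks in all 4 groups. Every array held RNA pooled from 3 mice of a group, and the p-values thus cover no more than how pools differed. Age and sex are not given in the sources used here.

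The proteasome is the protease that degrades proteins tagged with ubiquitin. Its core is a barrel of alpha and beta rings with the proteolytic sites on 3 beta subunits inside, and a regulatory particle of ATPases and other subunits binds, unfolds and feeds in the substrates. In skeletal muscle the ubiquitin-proteasome system removes contractile and damaged proteins, and its genes are known to be induced together in wasting. The transcription factor Nfe2l1 induces the subunit genes together through antioxidant response elements when proteasome activity is limiting, and NF-Y, which binds CCAAT boxes, has also been tied to their transcription.

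Promoter sequence from RefSeq (build GRCm38.p6) was held for 40 of the 48 members, as 43 promoters. The sequences show the members on which the results below turn: active-site subunits Psmb5 and Psmb6, immunoproteasome subunit Psmb9, and the ATPase Psmc6, the beta subunit Psmb4 and the chaperone Psmg4, which had some of the smallest p-values with training. Each runs 5′ to 3′ on the strand of the gene and covers 120 bases, the last 120 before the annotated start except for Psmc6, where bases 250 to 131 before it are shown. Capitals mark the fixed letters of the antioxidant response core TGACNNNGC or of CCAAT, on either strand.
Psmb5, chr14:54617996-54618115, minus strand: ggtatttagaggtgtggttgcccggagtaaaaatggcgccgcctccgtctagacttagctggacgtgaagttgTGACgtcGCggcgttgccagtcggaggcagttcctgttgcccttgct
Psmb6, chr11:70525237-70525356, plus strand: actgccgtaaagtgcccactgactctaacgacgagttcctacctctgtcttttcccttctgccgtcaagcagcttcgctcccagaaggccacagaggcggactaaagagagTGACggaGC
Psmb9, chr17:34187331-34187450, minus strand: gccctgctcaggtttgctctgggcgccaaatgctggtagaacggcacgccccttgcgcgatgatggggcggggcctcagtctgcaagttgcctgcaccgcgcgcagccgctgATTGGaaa
Psmc6, chr14:45329574-45329693, plus strand: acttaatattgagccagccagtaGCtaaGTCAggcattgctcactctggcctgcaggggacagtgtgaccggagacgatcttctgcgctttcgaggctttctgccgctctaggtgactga
Psmb4, chr3:94886959-94887078, minus strand: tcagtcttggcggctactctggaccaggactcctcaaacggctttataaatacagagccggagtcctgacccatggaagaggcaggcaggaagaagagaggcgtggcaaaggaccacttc
Psmg4, chr13:34162844-34162963, plus strand: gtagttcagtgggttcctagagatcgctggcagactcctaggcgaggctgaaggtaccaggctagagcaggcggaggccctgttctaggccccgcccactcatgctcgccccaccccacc

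In the 250 bases before the start, searched on both strands, TGACNNNGC occurred in 5 of the 43 member promoters (11.6%) and in 10.2% of all 32851 promoters of that length. The 5 belonged to Psmb5, Psmb6, Psmc6, Psmd9 and Psmd12. CCAAT occurred in 15 member promoters (34.9%), including those of Psma1, Psma2, Psma3, Psma6, Psma7 and Psmb3, against 33.8% of all promoters. No member promoter held both letter patterns, against 3.24% of all promoters, a share at which few would be looked for among 43. The members thus carried either pattern at about the share of promoters in general, and a match describes the letters only.

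The deposited signals are linear intensities, with an array median between 48.4 and 57.2, and the number of arrays limits the precision. All 9 skeletal muscle markers, such as Acta1 and Ckm, lay above the background of bacterial control probe sets (95th percentile 23.5), with mean signals from 6167 to 22580.2. The summed muscle markers were 143404 to 149836 on vehicle arrays, 142473 to 177918 on GW, 168262 to 176175 on exercise and 154136 to 170491 on combination arrays. The summed adipocyte markers were 1764 to 2493 on vehicle, 2087 to 2366 on GW, 2087 to 2547 on exercise and 1736 to 7069 on combination arrays. The signal of the actin control's 3′ end over its 5′ end, a measure of RNA integrity, was 0.838 to 1.1 on vehicle, 0.801 to 0.916 on GW, 0.763 to 0.816 on exercise and 0.803 to 0.841 on combination arrays, with the 1.1 on vehicle array 1. The same ratio of the Gapdh control was 0.89 to 0.906, 0.821 to 0.909, 0.896 to 0.94 and 0.877 to 0.914 in these groups. The part of these differences in the results below was not tested, and in whole muscle fewer cells of a type and less RNA per cell cannot be told apart.

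No proteasome gene passed the test with training, with GW1516 or with both. Of the 48 genes, 46 lay in the upper 60% of probe sets by mean log2 signal, a geometric mean of at least 28.4, and were tested. Psma8, a testis form of an alpha subunit (geometric mean 3.69), and the immunoproteasome subunit Psmb8 (24.9) lay below it. With limma's moderated test and Benjamini-Hochberg adjustment over all 13575 probe sets tested, 0 of 46 members passed an adjusted p of 0.05 in any of 8 comparisons. The share of all probe sets that passed was 0.0147% for exercise against vehicle, 0.0958% for GW against vehicle and 0.155% for combination against vehicle. It was 0.162% for combination against exercise, 0% for combination against GW and 0% for the interaction, in which the difference GW minus vehicle is subtracted from the difference combination minus exercise. For the training main effect, 6 trained against 6 sedentary arrays, it was 0.0147%, and for the drug main effect, 6 arrays with against 6 without GW1516, 0.317%. A moderated F test of any difference among the 4 groups called 0 members and 0.265% of all probe sets, with a smallest adjusted p among members of 0.505. A count of 0 among 46 is therefore close to what the rest of the array gave.

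At an unadjusted p under 0.05, 7 members were found with the training main effect, or 15.2% of the members against 9.09% of all probe sets. Of these 2 were higher (4.8% of all probe sets) and 5 lower (4.29%). Exercise against vehicle gave 7 as well, against 10.4% of all, with 1 higher (5.69% of all) and 6 lower (4.74%). Combination against vehicle gave 3, or 6.52%, against 9.98%, with 2 higher (5.48% of all) and 1 lower (4.5%). Drug comparisons gave fewer: 0 for GW against vehicle (6.42% of all), 0 for combination against exercise (9.18%) and 1 for the drug main effect (8.37%). Combination against GW gave 2 (5.75% of all), 1 higher (2.76%) and 1 lower (2.99%), and the interaction 0 (6.79%).

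**Figure D1:**
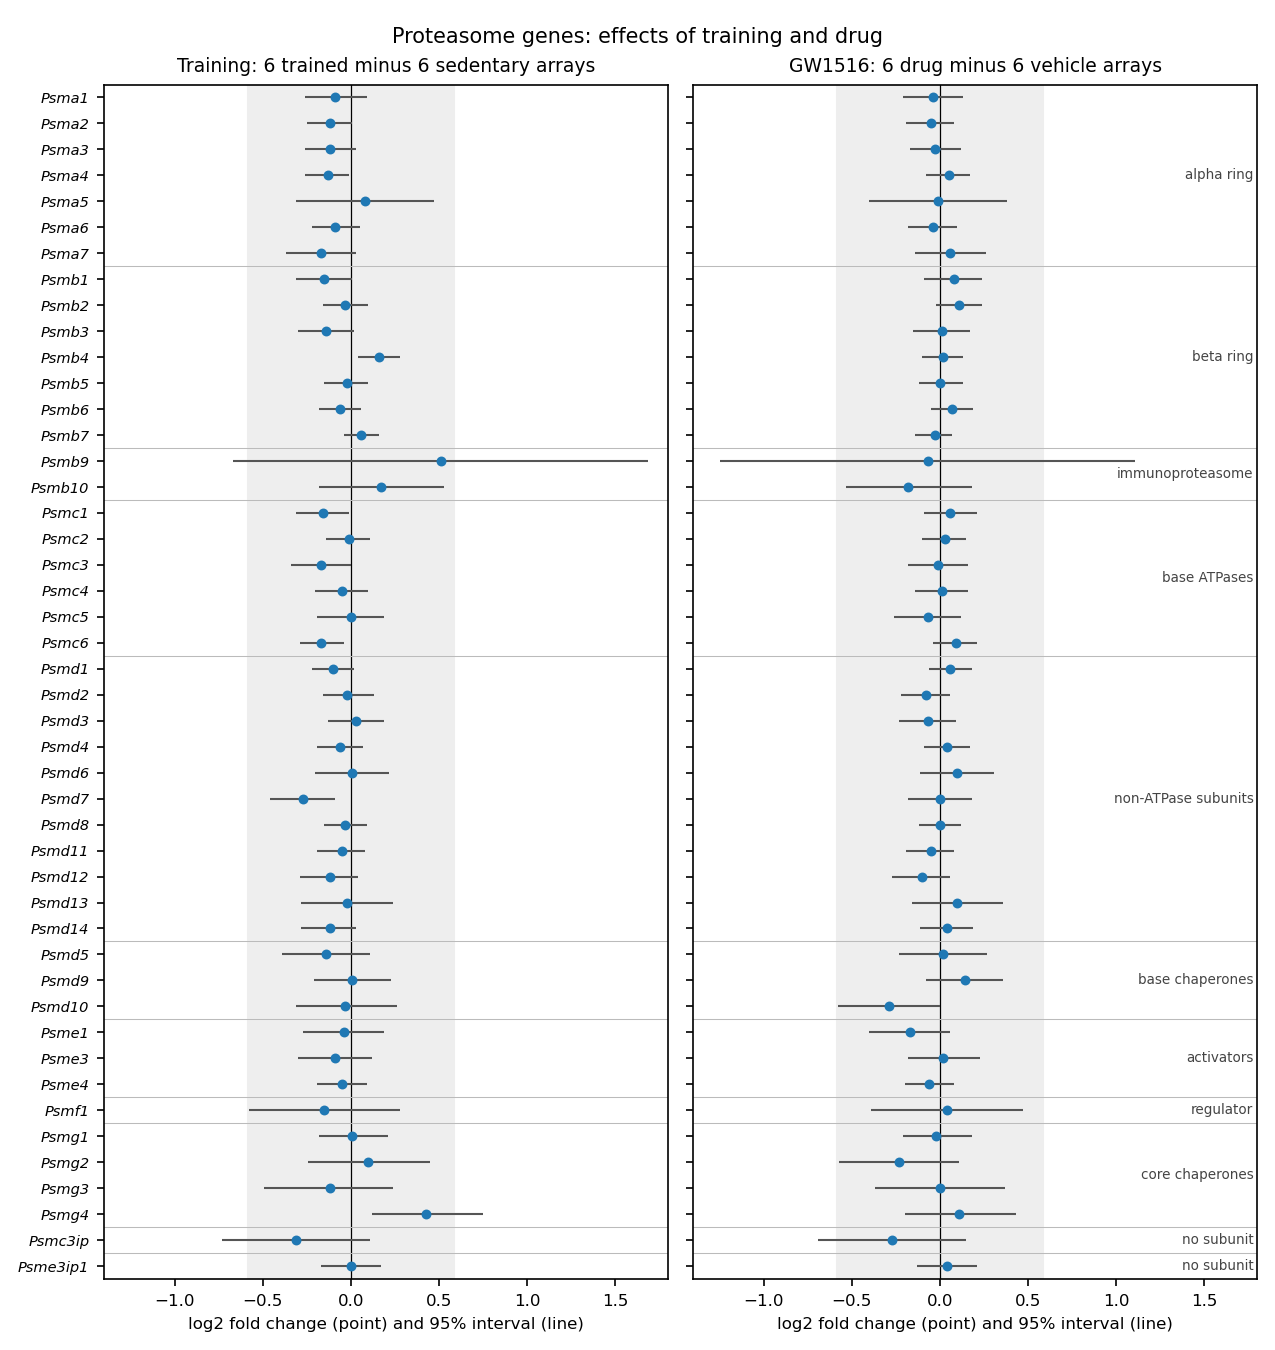
Log2 fold change (points) and its 95% interval from limma (lines) for the 46 proteasome genes tested, ordered by role, for training (left, 6 trained minus 6 sedentary arrays) and GW1516 (right, 6 arrays with minus 6 without the drug). The grey band spans 1.5-fold either way: 43 intervals lie inside it for training and 44 for the drug, and the widest belongs to the faint probe set of Psmb9.

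The intervals bound how large a change could have been missed. The 95% interval of the training effect lay within 1.5-fold in either direction for 43 of 46 members (93.5%), against 66% of all probe sets tested, and that of the drug effect for 44 (95.7%), against 66.3%. The exceptions were Psmb9 and Psmc3ip for both and Psmg4 for training. Against vehicle, the interval stayed within 1.5-fold for 38 members with GW (46% of all probe sets), 39 with exercise (43.8%) and 38 with the combination (43.8%). Over the 12 arrays the highest signal of a member stood a median of 1.37-fold above its lowest, under 1.5-fold for 31 members and under 2-fold for 44, the exceptions being Psmb9 and Psmf1 (2.33-fold). Mean signals were above 1000 for 23 members and below 200 for 11. Members were brightly measured: among the 2993 probe sets in the middle range of the members' mean signals (347 to 1870.5), 96% of training intervals and 95.3% of drug intervals also lay within 1.5-fold. The median standard deviation within groups was 0.13 on the log2 scale for members, 0.14 in that signal range and 0.25 for all probe sets tested.

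Active-site subunits Psmb5 and Psmb7 varied least over the arrays of all members tested. Psmb5 (probe set 1415676_a_at), which carries the chymotrypsin-like site, had signals of 2266, 2098 and 1985 on vehicle, 2279.6, 2069 and 2053 on GW, 2038, 1998 and 2247 on exercise and 2149, 2028 and 2075 on combination arrays. The 4 groups overlapped, and the highest array stood 1.15-fold above the lowest. The training effect on Psmb5 was -0.02 ± 0.06 (log2 fold change ± SE), with a 95% interval from 0.904-fold to 1.07-fold, and the drug effect was 0.00 ± 0.06 (0.921-fold to 1.09-fold). Psmb6 (1448822_at), with the caspase-like site, gave 1708, 1576 and 1583 on vehicle, 1692, 1579 and 1689 on GW, 1605, 1519 and 1407 on exercise and 1575, 1670.2 and 1639.8 on combination arrays. Here too the groups overlapped, with a training effect of -0.06 ± 0.06 and a drug effect of 0.07 ± 0.06. Psmb7 (1416240_at), with the trypsin-like site, gave 4238, 4465 and 4286 on vehicle, 4119, 4122 and 4503 on GW, 4417, 4390.1 and 4792 on exercise and 4416, 4259 and 4566 on combination arrays. Its training effect was 0.06 ± 0.05 (0.972-fold to 1.12-fold) and its drug effect -0.03 ± 0.05 (0.911-fold to 1.05-fold).

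**Figure D2:**
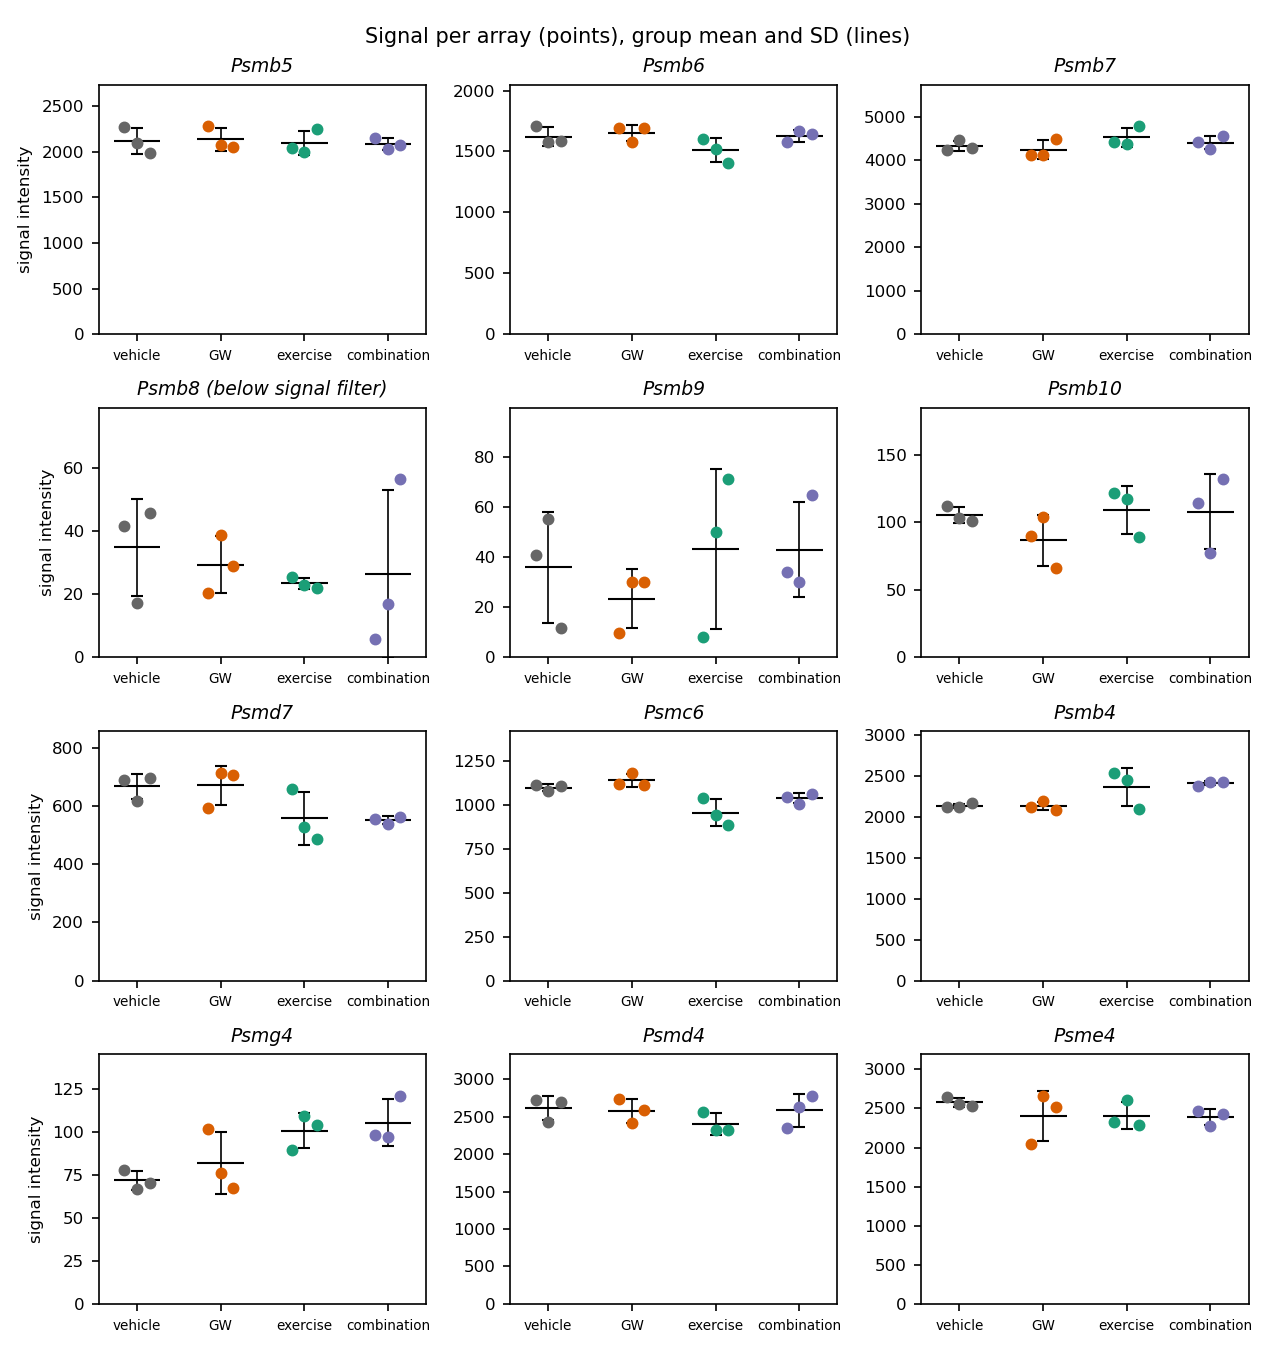
Signal intensity (linear axis from 0) on each array for 12 proteasome genes; points are arrays of pooled RNA from 3 mice, horizontal lines are group means and error bars are SD (n = 3). Active-site subunits Psmb5, Psmb6 and Psmb7 keep overlapping groups, Psmb8 and Psmb9 scatter near the background level, and for Psmc6 the 6 trained arrays lie below the 6 sedentary ones.

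Among the structural beta subunits, Psmb4 (1451205_at) had the smallest p with training. It gave 2119, 2119 and 2162 on vehicle and 2116, 2189 and 2086 on GW arrays, against 2536, 2449.5 and 2096 on exercise and 2377, 2419 and 2422 on combination arrays. Of the 6 trained arrays 5 lay above every sedentary array, and exercise array 3 did not. The training effect was 0.16 ± 0.06 (limma, adjusted p = 0.421), and combination against vehicle gave 0.17 ± 0.08 (adjusted p = 0.49). A second probe set of Psmb4 had the other sign, -0.12 ± 0.09. Psmb2, whose drug effect had the smallest p among beta subunits, measured 0.11 ± 0.06 with GW1516 (adjusted p = 0.665). Over the 7 constitutive beta subunits the training effect was negative in 5, with a median of -0.03, and the drug effect negative in 1, with a median of 0.02.

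The alpha ring forms the gate through which substrates enter the core. Training effects were negative in 6 of the 7 alpha genes tested, with a median of -0.12, and lay between -0.17 and 0.08. Psma3 had the smallest p of all members for exercise against vehicle, with signals of 2701, 2480.1 and 2433 on vehicle and 1918, 2114 and 2440 on exercise arrays, which overlapped. That difference was -0.24 ± 0.10 (limma, adjusted p = 0.407), while combination against vehicle gave -0.14 ± 0.10 from 2246, 2313 and 2323. Psma4 had a training effect of -0.13 ± 0.06 (adjusted p = 0.537). The positive value belonged to Psma5, at 0.08 ± 0.18, and a second probe set of Psma5 measured -0.28 ± 0.09 (adjusted p = 0.4). Drug effects on the alpha ring lay between -0.05 and 0.06.

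The immunoproteasome subunits replace the active-site subunits under interferon and are abundant in immune cells. Their signals were low. Psmb8 (1422962_a_at) gave 41.6, 17.3 and 45.8 on vehicle, 20.6, 38.7 and 28.9 on GW, 25.5, 23 and 22.1 on exercise and 5.97, 16.9 and 56.6 on combination arrays, and was not tested. Psmb9 (1450696_at) gave 40.9, 55.2 and 11.7 on vehicle, 9.7, 30.2 and 30.2 on GW, 8.26, 50.1 and 71.1 on exercise and 34.2, 29.9 and 64.6 on combination arrays. In 3 groups 1 array, at 11.7, 9.7 and 8.26, lay under the background level of 23.5, so the spread and the effects of Psmb9 rest partly on values within the background. Psmb9 had the highest training effect of all members, 0.51 ± 0.55, with an interval from 0.627-fold to 3.23-fold (adjusted p = 0.813), and the interval holds changes in either direction.

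Psmb10 (1448632_at) was measured better, with 112, 103 and 101 on vehicle, 89.8, 104 and 66.3 on GW, 122, 117 and 89.1 on exercise and 114, 77.3 and 132 on combination arrays. The groups overlapped, and the effects were 0.17 ± 0.17 for training and -0.18 ± 0.17 for the drug. Beside these values, the summed signal of 8 macrophage markers was 1039.8 to 2515 on vehicle, 1142 to 1741 on GW, 1483 to 2774 on exercise and 797 to 1558 on combination arrays. For 6 lymphocyte markers, of which 1 lay above background, the sum was 84.4 to 92.4 on vehicle, 107 to 149.9 on GW, 94 to 177 on exercise and 101 to 155 on combination arrays. Their part in the immunoproteasome values was not tested.

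In the base of the regulatory particle, 6 ATPases unfold the substrate. On the probe sets chosen, Psmc6 (1417771_a_at) was the 1 member of 46 whose trained and sedentary arrays did not overlap. Such a separation was found downward in 0.236% of all probe sets. Signals of Psmc6 were 1111, 1077 and 1104 on vehicle and 1118, 1182 and 1113 on GW arrays, above 1037, 942 and 886 on exercise and 1045, 1004 and 1061 on combination arrays. The training effect was -0.17 ± 0.06, a change of -11% (limma, adjusted p = 0.424), and exercise against vehicle gave -0.20 ± 0.08 (adjusted p = 0.423). A second probe set of Psmc6 had the same sign with -0.32 ± 0.15 (adjusted p = 0.558). Psmc1 and Psmc3 measured -0.16 ± 0.07 and -0.17 ± 0.08 with training, and Psmc5 0.00. Over the ATPases the training median was -0.10, with 5 of 6 negative, and the drug median was 0.02, with 2 of 6 negative.

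The other regulatory subunits include the scaffolds Psmd1 and Psmd2, the ubiquitin receptor Psmd4, and the deubiquitinase Psmd14 with its partner Psmd7. Psmd7 (1451056_at) had the smallest p of all members for training. Its signals were 689, 617 and 695 on vehicle (mean 667 ± 43.2, SD, n = 3), 594, 714 and 705 on GW (671 ± 66.6), 659, 526 and 485 on exercise (557 ± 91.1) and 555, 538 and 562 on combination arrays (552 ± 12.3). Exercise array 1 lay among the sedentary arrays and the other 5 trained arrays below all of them. The training effect was -0.27 ± 0.09, a change of -17.3% with an interval from 0.729-fold to 0.939-fold (limma, adjusted p = 0.36). A second probe set of Psmd7 measured 0.14 ± 0.34, but its mean signal of 32.8 was near the background level of 23.5. The drug effect on Psmd7, from the chosen probe set, was 0.00 ± 0.09.

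Psmd4 (1418874_a_at) gave 2719, 2433 and 2699 on vehicle, 2732, 2417 and 2591 on GW, 2566, 2319.7 and 2324 on exercise and 2346, 2628 and 2779 on combination arrays. The groups overlapped, and its effects were -0.06 ± 0.06 for training and 0.04 ± 0.06 for the drug. Psmd1 measured -0.17 ± 0.08 for exercise against vehicle (limma, adjusted p = 0.473) and 0.13 for combination against exercise (adjusted p = 0.656). Psmd2 measured -0.16 in the latter comparison (adjusted p = 0.663), and Psmd12 -0.17 ± 0.11 for GW against vehicle (adjusted p = 0.844). Of these 11 subunits 9 had a negative training effect, with a median of -0.05, and 4 a negative drug effect, with a median of 0.00.

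Activators open the core in place of the ATPase base. Psme1 (1417056_at), part of the interferon-inducible cap, gave 457, 545 and 468 on vehicle, 371, 499 and 484 on GW, 523, 455 and 494 on exercise and 339, 441 and 508 on combination arrays. Array 1 was the lowest of both drug groups, all groups overlapped, and the drug effect was -0.17 ± 0.11 (limma, adjusted p = 0.717). The probe set shared by Psme2, the partner of Psme1, and Psme2b had means of 288 ± 15.5 on vehicle, 270.2 ± 44.8 on GW, 275 ± 102 on exercise and 307 ± 26.8 on combination arrays (SD, n = 3). Psme3 (1418079_at), a nuclear activator, gave 339, 338 and 346 on vehicle, 371, 296 and 289 on GW, 338, 244 and 303 on exercise and 323, 328 and 325 on combination arrays.

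The highest exercise and the lowest vehicle array of Psme3 both rounded to 338, the combination arrays lay below vehicle, and the GW arrays lay on both sides of the vehicle arrays. Against vehicle, Psme3 measured -0.22 ± 0.14 with exercise (limma, adjusted p = 0.588) and -0.07 ± 0.14 with the combination (adjusted p = 0.918). On its second probe set the exercise value had the other sign, 0.32 ± 0.32, and the combination value was -0.06 ± 0.32. Psme4 (1426823_s_at), a large single-chain activator, gave 2642, 2557 and 2534 on vehicle, 2044, 2660.4 and 2515 on GW, 2328, 2604 and 2293 on exercise and 2465, 2280.5 and 2429 on combination arrays. It measured -0.05 ± 0.07 with training and -0.06 ± 0.07 with the drug. Psmf1 (1451337_at), which binds the core and inhibits it in vitro, gave 139.9, 128 and 79.8 on vehicle, 164, 118 and 97.3 on GW, 112, 127 and 89 on exercise and 119, 136 and 70.4 on combination arrays. Array 3 was the lowest of all 4 groups, and the training effect on Psmf1 was -0.15 ± 0.20. Its other 2 probe sets tested measured 0.17 ± 0.20 and -0.63 ± 0.19 (adjusted p = 0.351), so the 3 do not give 1 direction. On the last, with a mean signal of 60.8, all trained arrays lay below all sedentary arrays (0.236% of all probe sets).

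Assembly chaperones help build the core and the base. Psmg4 (1435431_at), which with Psmg3 guides the alpha ring, gave 78.1, 67.1 and 70.5 on vehicle, 102, 76 and 67.4 on GW, 89.4, 109 and 104 on exercise and 98.3, 96.9 and 121 on combination arrays. Both trained groups lay above vehicle, while GW array 1 reached into their range. Psmg4 measured 0.43 ± 0.15 with training (1.08-fold to 1.68-fold; limma, adjusted p = 0.41), 0.49 ± 0.21 for exercise against vehicle (adjusted p = 0.437) and 0.55 ± 0.21 for combination against vehicle (adjusted p = 0.414). For the core chaperones together the training effect was negative in 1 of 4, with a median of 0.06. Psmd10 (1436559_a_at), the base chaperone gankyrin, had the lowest drug effect of all members. It gave 116, 101 and 125 on vehicle, 93.9, 84.4 and 87.9 on GW, 119, 116 and 87.7 on exercise and 104, 81.6 and 88.9 on combination arrays.

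The GW arrays of Psmd10 lay below the vehicle arrays, while combination and exercise arrays overlapped. Its drug effect was -0.29 ± 0.13, a change of -18.2% (limma, adjusted p = 0.595), and GW against vehicle gave -0.36 ± 0.19 (adjusted p = 0.806). The highest drug effect belonged to Psmd9, another base chaperone, at 0.14 ± 0.10 (adjusted p = 0.759). Psmd5, the third of them, measured -0.31 for combination against GW (adjusted p = 0.856) and -0.35 for the interaction (adjusted p = 0.789). Psmc3ip, which is no subunit, had the lowest training effect, -0.31 ± 0.20 (adjusted p = 0.646), from signals of 53, 71.7 and 69.3 on vehicle, 38.5, 48.7 and 53.2 on GW, 51.8, 43 and 40.8 on exercise and 47.7, 44.8 and 37 on combination arrays. Its combination against vehicle value was -0.58 ± 0.28 (adjusted p = 0.517).

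Small negative values were the more frequent with training. The training effect was below 0 for 33 of 46 members (71.7%), against 49.3% of all probe sets tested, and its median was -0.05, a change of -3.53%, against 0.00 for all. Of the 31 structural subunits of core and regulatory particle tested, 25 were negative. Exercise against vehicle was negative for 31 members (48.8% of all probe sets), with a median of -4.21%, and combination against vehicle for 34 (50.4% of all), with a median of -5.38%. Both share the vehicle arrays, of which vehicle array 1 had members at a median of 0.11 (log2) above their own means. Without it, 26 members were negative for exercise and 27 for the combination. Exercise array 3, with a median of -0.10, held the lowest signal of 11 members, and GW array 1 the highest signal of 15.

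Complete separation followed the same direction. All 3 exercise arrays lay below all 3 vehicle arrays for 10 members (21.7%), against 8.56% of all probe sets, and above them for 1, against 8.83%. For the combination the counts were 8 lower (17.4%, against 8.88% of all) and 2 higher (against 7.94%). Members lower in both comparisons, on the probe set taken for each gene, were Psma2, Psma4, Psmc3ip, Psmc6 and Psme3, chosen after their values were seen. Members share arrays and are not independent of each other, so these counts describe the 12 arrays and carry no p-value.

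**Figure D3:**
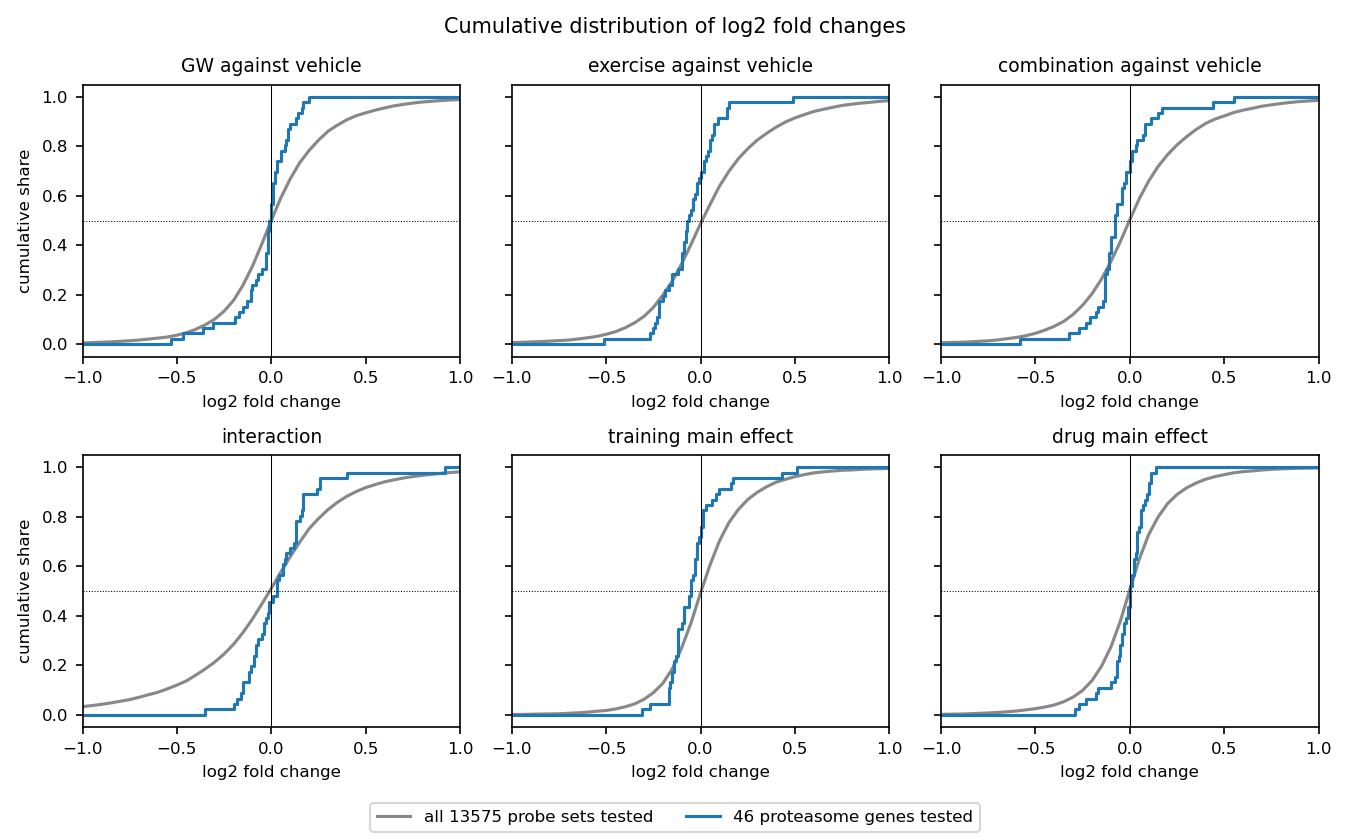
Cumulative share (vertical axis) of log2 fold changes (horizontal axis, -1 to 1) for the 46 proteasome genes tested (blue steps) and all 13575 probe sets tested (grey) in 6 comparisons. The blue curve is steeper throughout and crosses 0 at a higher share than the grey one for training, where 71.7% against 49.3% are negative, but not for the drug main effect, with 45.7% against 50.7%.

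No such tilt was seen with the drug. The drug main effect was below 0 for 21 of 46 members (45.7%), against 50.7% of all probe sets, with a median change of 0.208%, and the middle 50% of members lay between -0.05 and 0.05 on the log2 scale, against -0.11 and 0.11 for all. GW against vehicle was negative for 25 members (50.2% of all) and combination against exercise for 24 (51.3% of all), with medians of -0.293% and -0.222%. GW arrays lay fully below vehicle arrays for Psmd10 alone and fully above them for Psmc6 alone, against 5.47% and 5.54% of all probe sets. Combination arrays lay fully above exercise arrays for 1 member, Psmd1 (7.58% of all probe sets), and fully below for 1, Psmd8 (8.21%).

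The interaction tests whether GW1516 acted differently in trained and sedentary muscle. It was negative for 21 of 46 members (51.1% of all probe sets), with a median of 0.03. The smallest p belonged to Psma3 at 0.24 ± 0.14 (limma, adjusted p = 0.737), followed by Psmd8 at -0.20 (adjusted p = 0.747). Interaction intervals were wider, and 35 members (24.5% of all probe sets) had one within 1.5-fold. Training under the drug, combination against GW, was negative for 32 members (50% of all), and among them Psmd7 measured -0.28 ± 0.12 (adjusted p = 0.853) and Psma7 -0.25 (adjusted p = 0.859). Combination arrays lay fully above GW arrays for Psmb4 (5.13% of all probe sets) and fully below for Psmc6, Psmd5 and Psmd7 (5.38%).

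The members' further probe sets gave no call either. Of 19 genes with several probe sets tested, 26 further probe sets were measured, and limma called 0 of them in any comparison, with 6 at an unadjusted p under 0.05 for training, against 9.09% of all probe sets. All 6, of Psma5, Psma7, Psmc2, Psmd6, Psmd11 and Psmf1, were lower with training (4.29% of all). In that comparison 14 of the 26 had the sign of the probe set chosen for the gene. Those with the sign and an unadjusted p under 0.05 included Psma7 at -0.18 ± 0.08 (adjusted p = 0.534) and Psmc2 at -0.15 ± 0.06 (adjusted p = 0.507). Psmd6, with 0.01 ± 0.10 from its chosen probe set, had -0.22 ± 0.09 from the other (adjusted p = 0.505).

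Other genes of the ubiquitin pathway and around it were taken from a list of 47, of which 29 had a probe set of their own and 28 were tested. The list's 4 ubiquitin genes and 2 ubiquitin-activating enzymes had none, and 2 of its 5 muscle ligases had one. The 28 thus leave out much of the pathway. They include 6 genes listed for the transcriptional control of subunits and 4 of antigen processing. None of the 28 passed an adjusted p of 0.05 in any of the 8 comparisons with limma. At an unadjusted p under 0.05, exercise against vehicle gave 1 higher (5.69% of all probe sets) and 2 lower (4.74%), and combination against vehicle 0 higher (5.48%) and 4 lower (4.5%). The training main effect gave 0 higher (4.8%) and 1 lower (4.29%), and combination against GW 1 higher (2.76%) and 0 lower (2.99%). In both directions together there was 1 for GW against vehicle, lower (6.42% of all), 2 for the drug main effect, both lower (8.37%), 3 for combination against exercise, of which 2 were lower (9.18%), and 2 for the interaction, both higher (6.79%). Nfe2l1, the activator of subunit genes, measured -0.05 ± 0.07 with training and 0.08 ± 0.07 with the drug. Pomp, the chaperone that matures the core, measured 0.01 ± 0.07 and 0.06 ± 0.07, and Sem1, the smallest lid subunit, -0.01 ± 0.07 and 0.03 ± 0.07.

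The lowest value among them was that of Nfyb, a subunit of NF-Y, for exercise against vehicle, at -0.90 ± 0.25 (limma, adjusted p = 0.288). Its signals were 198, 209 and 213 on vehicle, 139, 170.4 and 134 on GW, 147, 64.6 and 143 on exercise and 176, 178 and 142 on combination arrays. Vehicle arrays were the highest and exercise array 2 the lowest, and a second probe set of Nfyb measured 0.01 ± 0.24 in that comparison. Ube3a, a ubiquitin ligase that binds the proteasome, measured -0.44 ± 0.14 for combination against vehicle (adjusted p = 0.282), while its 3 other probe sets gave -0.05, -0.27 and 0.82. Fbxo32, the muscle ligase atrogin, gave 2274, 1589 and 2531 on vehicle, 2322, 1955 and 1859 on GW, 1969, 2113 and 2146 on exercise and 1269.5, 1959.8 and 1672 on combination arrays. Its combination against vehicle value was -0.38 ± 0.17 (adjusted p = 0.484), and its second probe set gave -0.32 ± 0.14.

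**Figure D4:**
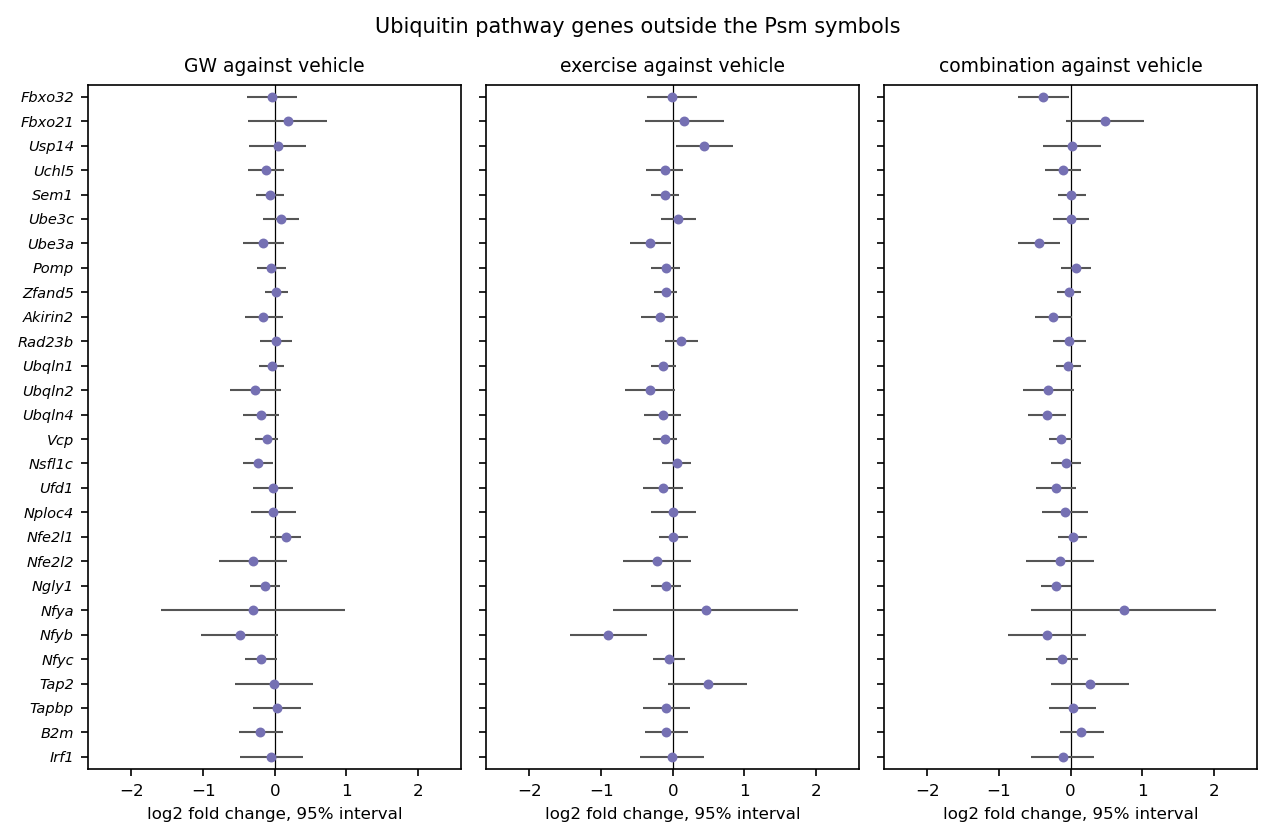
Log2 fold change (points) and 95% interval from limma (lines) of 28 listed genes outside the proteasome symbols, for GW, exercise and combination against vehicle. The genes include 6 listed for the transcriptional control of subunits and 4 of antigen processing, and no ubiquitin gene. Most points lie near 0; Nfyb with exercise, at -0.90, is the lowest point, and the widest intervals belong to Nfya.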

How the data were processed

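Members and gene lists were chosen with earlier results of these data known. The authors made the deposited intensities, which are linear, with MAS5, per the submitters' processing notes (version not given in the sources). The mean of each array without its lowest and highest 2% lay between 200.093 and 200.098. Signals were log2-transformed without a pseudocount. Without 64 control probe sets, the upper 60% of 22626 by mean log2 signal (13575 probe sets, lowest geometric mean 28.4) were tested in R 4.3.3 with limma 3.58.1. A model of 4 group means (8 residual degrees of freedom) used moderated variances with an intensity trend, and two-sided p-values were adjusted by Benjamini-Hochberg over all probe sets tested, with a threshold of 0.05. Gene names came from the array annotation, and all 48 members matched a gene identifier in the RefSeq table.

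Named were, for each comparison, called members or, with fewer than 4, those with the smallest p up to 4. Psmb5 to Psmb10 with active sites, Psme1 to Psme4, Psmd4, Psmf1 and the members with the largest and smallest training and drug main effects were always named. Intervals come from the moderated model. The procedure was tested on simulated data. Alternatives were quantile, cyclic loess and common median scaling, a pseudocount of 10.5, no filter and an upper 40% filter, other variance moderation, array weights, a replicate block, all probe sets of a gene, only the groups compared, and each array left out.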

Additional observations from a re-analysis of the deposited data

How the results depend on the processing

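Each comparison and the F test was rerun under 23 or 24 alternative settings, which include each array left out and array number as a replicate block. The count of called members was 0 in all 212 of these reruns. For the 4 members with the smallest p in each comparison, 0 of 722 rerun values changed sign or passed the threshold. Choosing them by p favours a stable sign, and the signs of the other named members were not followed. The lowest adjusted p of a member in any rerun with limma was 0.158, for training without GW array 1. Medians over members moved by more than the spread between arrays (0.05, SD) under scaling to a common median alone, to -0.08 for GW against vehicle, -0.2 for exercise, -0.16 for the combination, 0.05 for combination against exercise, 0.16 for the interaction and -0.12 for training. That scaling set the median of all probe sets at -0.13 for exercise, -0.09 for the combination and -0.07 for training. It shifts all probe sets of an array alike, so it cannot change the median of members minus that of all probe sets. This difference was -0.07 for exercise and -0.08 for the combination with and without it. Quantile normalization gave -0.03 and -0.04, and cyclic loess -0.05 and -0.06. Over the normalizations, filters and arrays left out, the difference ran from -0.11 to -0.03 for exercise and from -0.1 to -0.02 for the combination. Under the common median, 40 of 46 members were negative with training, but that scaling moved all probe sets in the same direction. The share of all probe sets below 0 under it was not counted. With each array left out, the median ran from -0.07 to -0.04 for training, from -0.02 to 0.03 for the drug, from -0.1 to -0.03 for exercise and from -0.1 to -0.03 for the combination, and members negative with training from 30 to 36. Labels number the arrays 1 to 3 in each group, and the correlations of same-numbered arrays' deviations over 18 pairs ran from -0.05 to 0.1, with 0 above 0.1, so the numbers were not taken to pair the arrays. As a hint from the data, not the design, 8 of 12 arrays correlated best with their own number, more than an even spread gives. With that number as a replicate block, the members called remained 0 in each comparison, and the calls over all probe sets were 11 for GW, 2 for exercise, 18 for the combination and 35 for the drug main effect, against 13, 2, 21 and 43 without it, and 0 for training, 26 for combination against exercise, 1 for combination against GW and 1 for the interaction, against 2, 22, 0 and 0. Over all alternatives those calls ran from 7 to 20, 0 to 33, 7 to 94 and 9 to 76, from 4 to 83 for combination against exercise (22), from 0 to 35 for combination against GW (0), from 0 to 9 for the interaction (0) and from 0 to 23 for training (2). Signals near background limit Psmb8, Psmb9 and Psma8.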
